A study of Mus musculus with 8 samples.

Results

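The genes of fatty acid oxidation and ketone body synthesis were described in mouse liver. They are 39 listed genes, chosen by gene symbol: enzymes and carriers that bring fatty acids into the cell and into mitochondria, the mitochondrial and peroxisomal oxidation enzymes, ketone body enzymes, and targets and regulators of the same pathway. Of the 39 genes, 37 had a probe on the array. Acsl1 and Ucp2 carried no feature with a single symbol. Of the 37, 36 had a value on all 8 arrays and were tested, among 15346 genes tested in all. Ucp3 had a value on 5 arrays and was described without a test. The 37 genes were read by 80 features, and 14 genes had more than 1 feature.

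In fasting, fatty acids released from fat tissue are burned in liver mitochondria, and the acetyl-CoA formed is turned into ketone bodies that other organs use as fuel. Long chains are carried into mitochondria by the carnitine shuttle, and very long chains are first shortened in peroxisomes. Many genes of the pathway are targets of the nuclear receptor PPAR alpha in liver, and several have a counterpart or an isoform that is typical of muscle or brown fat.

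Livers came from C3H/HeN mice of both sexes, 8 weeks old, and their RNA was hybridised to 8 Agilent 2-colour arrays, with 2 arrays in each of 4 groups. The groups were females given vehicle (female control), males given vehicle (male control), females given 25 µg/kg recombinant murine IL1-beta and males given the same dose of the cytokine. Injections were intraperitoneal, on every other day for 2 weeks, and livers were collected 1 h after the last one. According to the labels, liver carried Cy5 on every array and a universal reference RNA from 11 mouse cell lines carried Cy3. The labels call the arrays biological replicates and say nothing more of their source. The p-values thus measure the spread between arrays of a group, by 1 estimate per gene that all 4 groups share. Values are log2 ratios of the 2 channels, so that a level is an excess over the pool, and a greater ratio of one gene than of another does not mean a more abundant transcript. In bulk liver, fewer cells of a type and less RNA per cell cannot be told apart.

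The arrays labelled control went against their labels, and the direction of their values is not settled. Hepatocyte markers had a median of 6.15 on the IL1-beta arrays and lay within medians of -0.28 to 0.09 on the 4 control arrays. The female-specific RNA Xist was at -4.94 and -4.57 where the label says female control but at 5.40 and 5.78 where it says male control, and Y-linked genes had the opposite signs. The control arrays of the 2 labels also mirrored each other: over all tested genes r was -0.722 for number 1 and -0.592 for number 2, and -0.519 and -0.478 between unlike numbers. Over the 36 fatty acid oxidation genes the same correlations were -0.881, -0.919, -0.868 and -0.780, while the 4 IL1-beta arrays correlated at 0.959 to 0.985. The SD over all tested genes was 0.66 to 0.74 on control arrays and 1.99 to 2.07 on IL1-beta arrays. The control arrays were therefore read as a difference: the mean of the arrays labelled male control minus that of the arrays labelled female control, divided by 2. A positive value lies on the side of Xist, and the difference as labelled, female minus male, is this value times -2 with the same test.

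Promoter stretches are printed for Pdk4, Ucp3 and Ehhadh, which stood apart on the control arrays. Vnn1, Cpt1b and Crat also stood apart there but had no window among the promoters searched. Printed too are Cpt1a, the liver form of the shuttle's entry enzyme, and the stretch shared by Hadha and Hadhb. The windows come from RefSeq (GRCm38.p6), run 5′ to 3′ on the strand of the gene and cover 250 bases before to 50 after the start site. Capitals mark a match to AGGTCA, the half-site bound by nuclear receptors, or to AGGTCANAGGTCA, a direct repeat of it with 1 free base in the middle (DR1, the kind of element PPAR alpha binds with its partner RXR), on either strand. The half-site was matched exactly and the repeat with up to 2 mismatches. The windows were chr6:5496229-5496528 (minus strand) for Pdk4, chr7:100472741-100473040 (plus) for Ucp3, chr16:21787785-21788084 (minus) for Ehhadh and chr19:3323051-3323350 (plus) for Cpt1a.
Pdk4: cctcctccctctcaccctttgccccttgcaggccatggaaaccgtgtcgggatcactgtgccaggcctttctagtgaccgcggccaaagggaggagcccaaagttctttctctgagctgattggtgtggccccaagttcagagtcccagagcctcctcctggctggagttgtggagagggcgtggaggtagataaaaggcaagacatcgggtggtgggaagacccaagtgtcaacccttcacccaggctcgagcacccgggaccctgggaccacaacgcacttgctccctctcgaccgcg
Ucp3: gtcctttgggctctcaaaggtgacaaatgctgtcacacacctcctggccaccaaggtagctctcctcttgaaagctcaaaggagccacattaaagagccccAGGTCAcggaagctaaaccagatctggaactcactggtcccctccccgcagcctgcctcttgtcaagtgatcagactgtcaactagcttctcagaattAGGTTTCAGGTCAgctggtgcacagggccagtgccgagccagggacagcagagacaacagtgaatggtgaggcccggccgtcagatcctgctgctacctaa
Ehhadh: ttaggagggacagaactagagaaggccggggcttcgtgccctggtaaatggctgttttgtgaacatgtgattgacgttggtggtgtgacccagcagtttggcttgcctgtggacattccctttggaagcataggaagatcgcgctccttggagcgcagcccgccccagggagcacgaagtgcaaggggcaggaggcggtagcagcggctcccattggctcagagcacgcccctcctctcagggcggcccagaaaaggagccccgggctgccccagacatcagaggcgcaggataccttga
Cpt1a: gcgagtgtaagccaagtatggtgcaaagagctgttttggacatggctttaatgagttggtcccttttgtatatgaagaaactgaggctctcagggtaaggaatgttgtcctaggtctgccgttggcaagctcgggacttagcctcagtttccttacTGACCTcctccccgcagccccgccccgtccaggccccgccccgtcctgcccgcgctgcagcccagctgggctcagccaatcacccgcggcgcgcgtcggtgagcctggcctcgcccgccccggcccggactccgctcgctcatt

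The Ucp3 window held half-sites at -149 and -44 and a repeat that starts at -51 with 2 mismatches and overlaps the second half-site, counted from the start site. The Cpt1a window held 1 half-site at -94 on the minus strand. Pdk4 and Ehhadh had no match in these windows. Windows of 31 of the 39 genes were searched, 36 in all since some genes have several. A half-site was found in 7 of them (19.4%) and in 5340 of 32851 promoters of the table (16.3%), and a DR1 match in 4 (11.1%) and in 1268 (3.86%). The 4 repeats belonged to Ucp3, Echs1, Etfa and Creb3l3. That of Creb3l3 lay in its window chr10:81092542-81092841, and its window chr10:81098823-81099122 held no match. Each such match is a description of letters, not of binding.

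Hadha and Hadhb, which encode the 2 subunits of the mitochondrial trifunctional protein, start head to head on chromosome 5, with start sites 273 bases apart at 30154980 and 30155253. The stretch that both promoter windows hold, chr5:30155003-30155230, is printed because this pair shares it and gave unlike probe readings. It is 228 bases long, 57% of them G or C, given on the plus strand, the strand of Hadhb. No half-site and no repeat was found in it.
Hadha and Hadhb: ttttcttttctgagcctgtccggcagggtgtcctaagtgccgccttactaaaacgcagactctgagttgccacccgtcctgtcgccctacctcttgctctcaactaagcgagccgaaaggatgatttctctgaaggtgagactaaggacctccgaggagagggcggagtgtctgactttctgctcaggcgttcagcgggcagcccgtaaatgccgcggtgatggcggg

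Levels on the IL1-beta arrays came first, since these arrays carried the liver profile. Of the 36 genes, 30 stood higher in liver than in the pool and 4 lower (limma, adjusted p under 0.05), where 36.2% of all tested genes were higher and 42.3% lower. The median of the 36 genes was 2.11, against -0.11 over all tested genes. Centring each array on its median moves the median of all genes to 0.00 and that of the 36 genes to 2.22, and quantile normalization brings the latter to 1.37. The plot of levels on the IL1-beta arrays shows each gene by role.

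**Figure D1:**
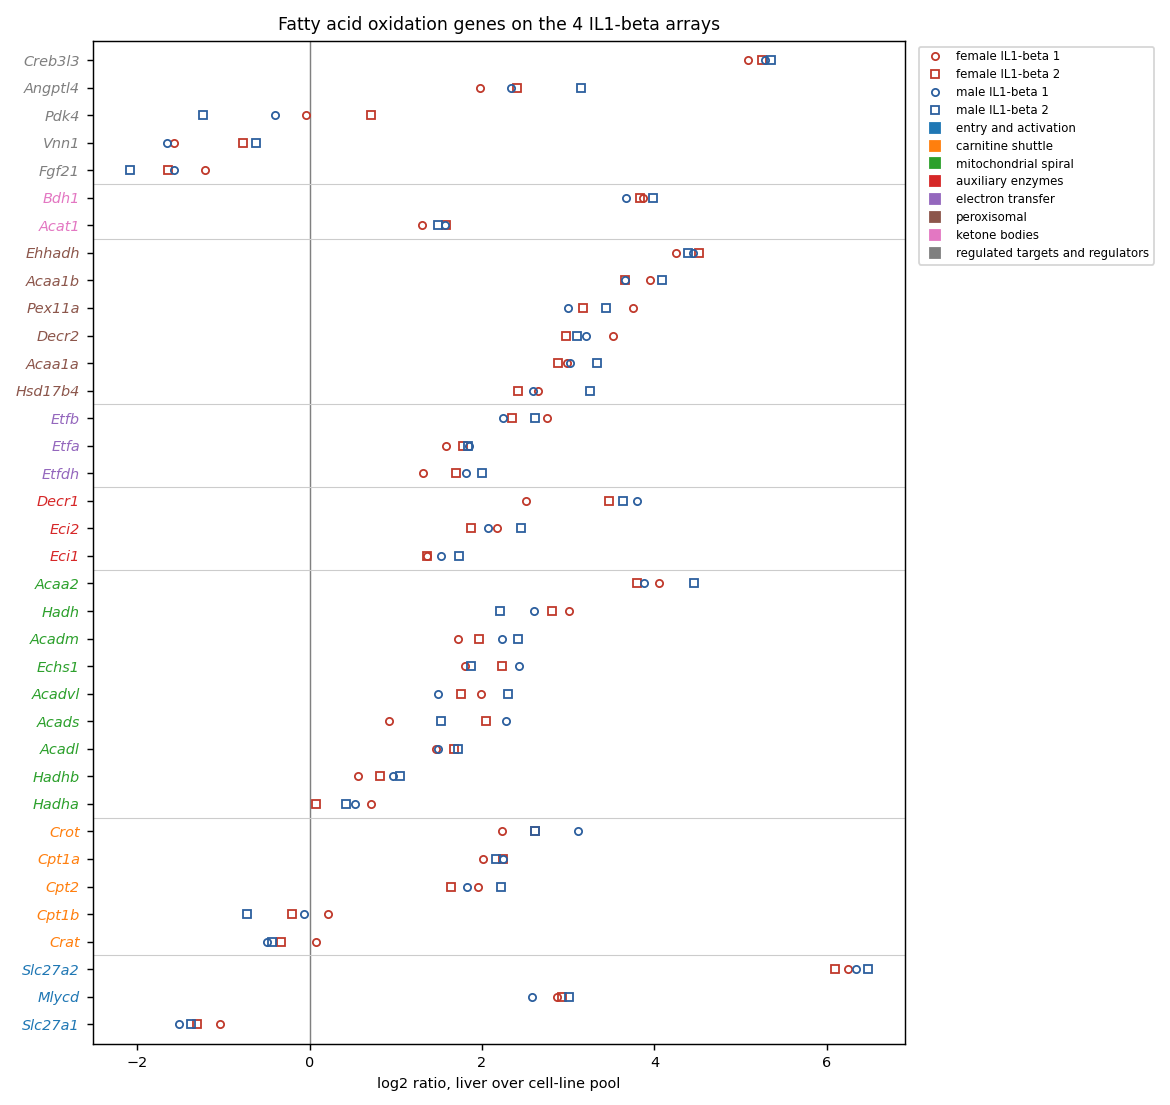
Log2 ratio of liver over the cell-line pool (x axis) for the 36 tested genes (rows, grouped and coloured by role) on the 4 IL1-beta arrays, 1 symbol per array. Most genes lie right of 0, from 0.43 for Hadha to 6.29 for Slc27a2 in their means. Slc27a1, Vnn1 and Fgf21 lie left of 0 on all 4 arrays. Crat, Pdk4 and Cpt1b have means below 0 (-0.30, -0.24 and -0.19) and arrays on both sides of it.

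Entry of fatty acids was represented by 2 transport proteins of unlike ratio to the pool. Slc27a2, the fatty acid transporter and very long chain acyl-CoA synthetase of liver, read 6.25 and 6.10 in females and 6.34 and 6.48 in males given IL1-beta, and -0.38, -0.53, -0.09 and -0.28 on the control arrays (labelled female 1 and 2, then male 1 and 2; the same order holds below). It had the greatest mean of the 36 genes against the pool, 6.29 ± 0.09 (SE, 78.3-fold, n = 4 arrays), as the mean of 2 features, while a feature annotated to another cDNA, left out for want of a value on female array 1, read 0.55, 1.57 and 0.23 on the other IL1-beta arrays. Slc27a1, the transporter of muscle and fat, read -1.05 and -1.31 in females and -1.51 and -1.38 in males, all below the pool. Mlycd, malonyl-CoA decarboxylase, which removes the inhibitor of the carnitine shuttle, stood at 2.85 ± 0.10.

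In the carnitine shuttle, Cpt1a, the liver form of the rate-limiting enzyme, read 2.01 and 2.24 in females and 2.24 and 2.16 in males given IL1-beta. Cpt1b, the muscle form of the same enzyme, read 0.22 and -0.20 in females and -0.06 and -0.72 in males. These values were means of 2 RefSeq probes that lay on opposite sides of the pool. The first probe read 1.02 and 0.51 in females and 0.70 and 0.37 in males. The second read -0.59 and -0.92 in females and -0.82 and -1.81 in males. The level of Cpt1b was thus set by which probes were averaged. Crat, which moves short acyl groups onto carnitine, read 0.07 and -0.34 in females and -0.49 and -0.43 in males. The sexes did not overlap in Crat, and its mean of -0.30 ± 0.11 passed the test against the pool (adjusted p = 0.0391). Crot, the peroxisomal octanoyltransferase, stood at 2.65 ± 0.13 and Cpt2, the inner-membrane enzyme of the shuttle, at 1.91 ± 0.11.

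All 9 enzymes of the mitochondrial spiral passed above the pool. Acaa2, the thiolase of the last step, had the greatest mean, 4.05 ± 0.12, followed by Hadh, the short-chain hydroxyacyl-CoA dehydrogenase, at 2.66 ± 0.11. The ratios of the acyl-CoA dehydrogenases ran from 1.59 ± 0.11 for Acadl to 2.08 ± 0.10 for Acadm, with Acads at 1.69 ± 0.21 and Acadvl at 1.88 ± 0.14. Acads had the widest spread of the 9, with 0.92 and 2.05 in females and 2.28 and 1.53 in males. Echs1, enoyl-CoA hydratase, stood at 2.08 ± 0.13.

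The subunits of the trifunctional protein, which share the promoter stretch printed above, gave the 2 lowest values of the spiral. Hadhb read 0.56 and 0.81 in females and 0.96 and 1.05 in males, with a mean of 0.85 ± 0.09. Hadha stood at 0.43 ± 0.15 as the mean of 3 probes that disagreed. Its RefSeq mRNA probe read 0.89, 1.11, 1.19 and 1.23 on the IL1-beta arrays, while 2 probes for other cDNAs had means of 0.14 and 0.06. The Hadha value was thus set by which probes were averaged, and its RefSeq mRNA probe lay beside Hadhb.

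The helper enzymes that prepare unsaturated chains also passed above the pool. Eci1, an enoyl-CoA isomerase, read 1.36 and 1.36 in females and 1.53 and 1.73 in males. Eci2, its second isomerase, read 2.18 and 1.88 in females and 2.07 and 2.45 in males. Both isomerases were above the pool on all 4 IL1-beta arrays. Decr1, the mitochondrial dienoyl-CoA reductase, stood at 3.36 ± 0.17, with female array 1 (2.52) below the other arrays (3.47 to 3.80).

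Electrons from the dehydrogenases pass through the electron transfer flavoprotein. Etfb, its beta subunit, read 2.76 and 2.35 in females and 2.24 and 2.62 in males. Etfdh, the oxidoreductase that hands the electrons to ubiquinone, read 1.32 and 1.70 in females and 1.81 and 2.00 in males. Etfa, the alpha subunit, stood at 1.76 ± 0.09. For Etfdh, 2 RefSeq probes had means of 2.72 and 2.16 and a probe for another cDNA 0.24.

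Peroxisomal genes stood high as a group, with a median of 3.27 over 6 genes. Ehhadh, the bifunctional enzyme of the inducible peroxisomal pathway, read 4.25 and 4.52 in females and 4.45 and 4.38 in males (mean 4.40 ± 0.11, 21.1-fold). Acaa1a, a peroxisomal thiolase, read 2.98 and 2.88 in females and 3.01 and 3.33 in males. Its near-identical paralogue Acaa1b stood at 3.84 ± 0.12, and how far probes separate the 2 thiolases is uncertain. Pex11a, which drives peroxisome division, stood at 3.34 ± 0.14, Decr2, the peroxisomal dienoyl-CoA reductase, at 3.20 ± 0.13 and Hsd17b4, the D-bifunctional enzyme, at 2.73 ± 0.13.

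Ketone body synthesis was represented by 2 genes. Bdh1, the dehydrogenase that forms beta-hydroxybutyrate, read 3.87 and 3.84 in females and 3.67 and 3.99 in males (3.84 ± 0.10, 14.3-fold). Acat1, the mitochondrial acetoacetyl-CoA thiolase, read 1.31 and 1.58 in females and 1.57 and 1.49 in males. Both lay above the pool on all 4 arrays, and neither sex stood apart.

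Among the regulated targets, Creb3l3, a liver transcription factor of the fasting response, stood at 5.24 ± 0.09 (37.8-fold), and Angptl4, a secreted inhibitor of lipoprotein lipase, at 2.47 ± 0.15. Pdk4, the kinase that shuts pyruvate dehydrogenase and spares glucose, read -0.04 and 0.71 in females and -0.40 and -1.24 in males and did not pass against the pool (-0.24 ± 0.25, adjusted p = 0.392). Both female arrays lay above both male arrays. Vnn1, a pantetheinase and PPAR alpha target, read -1.57 and -0.77 in females and -1.66 and -0.62 in males, with array 2 of each sex above array 1. Fgf21, a liver hormone of fasting, stood at -1.63 ± 0.41, below the pool on all 4 arrays.

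Between females and males given IL1-beta, 0 of the 36 genes passed the limma test, where 0.163% of all tested genes did. Of the 36 genes, 1 had an unadjusted p under 0.05 (Acadm), as had 1270 of the 15346 genes tested. Female minus male values had a median of -0.09, with 11 genes above 0 and 25 below. Over all 15346 genes tested the median was -0.01, and 7559 genes were above 0. Arrays of the sexes did not overlap for 14 genes, 10 higher in males and 4 higher in females, where 36.9% of all tested genes did not overlap. That share is close to the background.

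The largest values in either direction were those of Pdk4 and Decr1. Pdk4 was 1.15 ± 0.49 higher in females (adjusted p = 0.615), and Decr1 stood at -0.73 ± 0.33 (adjusted p = 0.644). Acadm, medium-chain acyl-CoA dehydrogenase, read 1.72 and 1.97 in females and 2.23 and 2.42 in males, a value of -0.48 ± 0.19 (adjusted p = 0.567). Hadh stood at 0.51 ± 0.21 (adjusted p = 0.610). The smallest errors were near 0.17, so values of the size most genes showed were not detectable with 2 arrays per sex.

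The control arrays gave a different order of genes. Of the 36 genes, 8 passed on the Xist side, where 12.1% of all tested genes did, and 0 passed on the opposite side, where 9.3% did. As labelled, these 8 genes were lower on the arrays labelled female control. Groups did not overlap for 25 genes, 22 of them on the Xist side and 3 opposite (Eci2, Etfb and Angptl4), where 67.4% of all tested genes did not overlap. The median of the 36 genes was 0.14, against -0.02 over all tested genes, and 30 of them had a positive value, as had 7347 of the 15346 genes tested. Without female control 2 or without male control 1, 5 genes passed (Pdk4, Vnn1, Cpt1b, Crat and Slc27a1). Median centring left 8 genes passing and quantile normalization gave 14, with medians of 0.15 and 0.25. With the control groups fitted alone, so that the IL1-beta arrays gave no part of the spread, 6 genes passed (Cpt1a and Bdh1 lost).

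**Figure D2:**
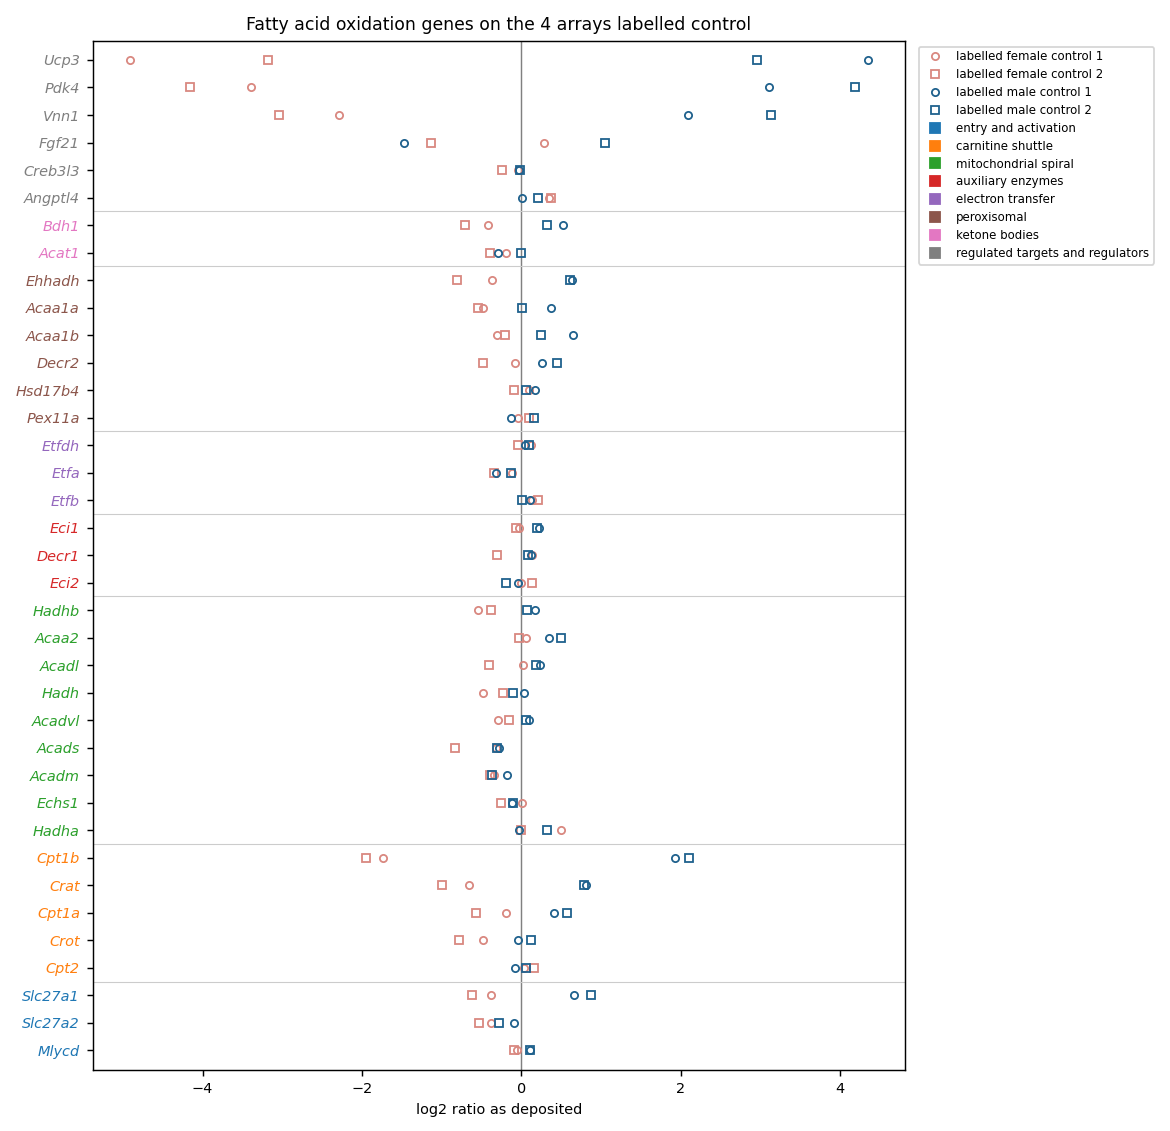
Deposited log2 ratio (x axis) of the 36 tested genes and Ucp3 (rows, grouped and coloured by role) on the 4 arrays labelled control, 1 symbol per array. Pdk4, Vnn1, Cpt1b and Ucp3 spread widely with the arrays of each label on their own side of 0, while most mitochondrial enzymes lie near 0 on all 4 arrays.

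Pdk4 had the largest difference of the 36 genes. Its ratios were -3.39 and -4.15 for the label female control and 3.12 and 4.19 for the label male control. The arrays of the labels lay far apart, on either side of 0. The turned and halved difference was 3.71 ± 0.25 (SE, n = 2 arrays per label, 13.1-fold, adjusted p = 0.000286), and the difference as labelled, female minus male, was -7.42 ± 0.49. Vnn1 read -2.29 and -3.05 against 2.10 and 3.14, a difference of 2.64 ± 0.26 (adjusted p = 0.00137). In both genes the arrays of number 2 lay further from 0 than those of number 1.

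In the carnitine shuttle 3 of 5 genes passed. Cpt1b read -1.73 and -1.94 against 1.93 and 2.11 and differed by 1.93 ± 0.14 (3.81-fold, adjusted p = 0.000398). Its 2 RefSeq probes moved the same way, by 2.41 and 1.45. Crat read -0.66 and -1.0 against 0.81 and 0.79, a difference of 0.82 ± 0.11 (adjusted p = 0.00404). Cpt1a, the liver form, read -0.19 and -0.57 against 0.41 and 0.57, a smaller difference of 0.44 ± 0.10 (adjusted p = 0.0274). The labels did not overlap in any of the 3 genes. Cpt1a did not pass without female control 2, without either male control array or without either male IL1-beta array (adjusted p from 0.0533 to 0.123). Crot (0.34 ± 0.13, adjusted p = 0.102) and Cpt2 (-0.05 ± 0.11) did not pass.

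Of the fatty acid transporters, Slc27a1 read -0.38 and -0.62 against 0.67 and 0.87, a difference of 0.64 ± 0.10 (adjusted p = 0.00711). Its 2 probes disagreed in size: the RefSeq mRNA probe differed by 0.10 and the other by 1.17. With RefSeq mRNA probes alone, a setting added after the values were seen, Slc27a1 did not pass (adjusted p = 0.398). Nor did it pass with only the probe of the highest mean, a planned setting (0.10 ± 0.09, adjusted p = 0.440). Slc27a2 (0.13 ± 0.09) and Mlycd (0.10 ± 0.10) did not pass either. The 2 averaged features of Slc27a2 went opposite ways, by -0.17 and 0.44.

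None of the 9 enzymes of the mitochondrial spiral passed, nor did the 3 helper enzymes or the 3 electron transfer genes. Hadhb came nearest, with -0.55 and -0.38 against 0.18 and 0.08 (0.30 ± 0.09, adjusted p = 0.0643). Acadl, long-chain acyl-CoA dehydrogenase, read 0.02 and -0.40 against 0.23 and 0.18 on the control arrays and 1.47, 1.68, 1.49 and 1.72 on the IL1-beta arrays, with a control difference of 0.20 ± 0.11. Both genes had the arrays labelled male above those labelled female. The remaining spiral enzymes lay between -0.05 (Hadha) and 0.20 (Acaa2). As for the levels, the RefSeq mRNA probe of Hadha read -0.45 and -0.87 against 0.20 and 0.23, beside Hadhb, while its other 2 probes differed by -0.31 and -0.29. With RefSeq mRNA probes alone, Hadha (0.44) and Hadh (0.46) passed.

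Among helper enzymes, Eci1 read -0.02 and -0.06 against 0.23 and 0.20 (0.13 ± 0.09), and Eci2 -0.01 and 0.13 against -0.04 and -0.20 (-0.09 ± 0.11). Etfb read 0.13 and 0.21 against 0.11 and 0.01 (-0.05 ± 0.11), and Etfdh 0.12 and -0.04 against 0.04 and 0.09 (0.01 ± 0.10). As gene means, these 4 genes lay within 0.21 of 0 on all control arrays except Eci1 on male 1. The 3 probes of Etfdh disagreed, with control differences of -0.235, 0.031 and 0.245. Decr1 stood at 0.09 ± 0.17 and Etfa at 0.01 ± 0.09.

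Of the peroxisomal genes, Ehhadh passed. It read -0.37 and -0.80 against 0.63 and 0.61, a difference of 0.60 ± 0.11 (1.52-fold, adjusted p = 0.0108). It did not pass without female control 2 (adjusted p = 0.0506) or male control 1 (adjusted p = 0.0572). Acaa1a read -0.48 and -0.55 against 0.37 and 0.01 (0.35 ± 0.11, adjusted p = 0.0554), with 1 of its 3 probes at 0.04 and the others at 0.44 and 0.59. Its paralogue Acaa1b gave 0.35 ± 0.12 (adjusted p = 0.0841). Decr2 stood at 0.32 ± 0.13, Hsd17b4 at 0.06 ± 0.13 and Pex11a at -0.01 ± 0.14.

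Of the ketone body genes, Bdh1 read -0.42 and -0.70 against 0.52 and 0.32 and differed by 0.49 ± 0.10 (adjusted p = 0.0188). It did not pass without female control 2, male control 1 or male control 2 (adjusted p from 0.0524 to 0.106). Acat1 read -0.20 and -0.39 against -0.29 and -0.001 and differed by 0.07 ± 0.10. The labels overlapped in Acat1 and not in Bdh1.

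The remaining regulated genes were named after their values were seen. Ucp3, an uncoupling protein of muscle and brown fat mitochondria, read -4.92 and -3.18 against 4.35 and 2.96, a wider range than that of Pdk4. It had no value on 3 of the IL1-beta arrays and read 0.48 on male array 2. Fgf21 read 0.28 and -1.13 against -1.47 and 1.05, so that its number 1 arrays lay at -0.87 and its number 2 arrays at 1.09 in the turned and halved difference. Its 2 probes followed this order together. Creb3l3 (0.06 ± 0.09) and Angptl4 (-0.13 ± 0.15) did not pass.

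The 2 numbers of control arrays can be read apart, and the genes differ in how far they repeat. Values of the turned and halved difference were 3.25 and 4.17 for Pdk4 (number 1, then number 2), 2.19 and 3.09 for Vnn1, 1.83 and 2.03 for Cpt1b and 0.74 and 0.90 for Crat. These 4 genes had the same sign and a similar size in both. Over the 36 genes the medians were 0.12 and 0.19, 24 genes were positive in both and 9 were higher in number 1. Over all 15346 genes tested the medians were -0.02 and -0.01, 5330 were positive in both and 7397 were higher in number 1. If the mirrored arrays of 1 number share RNA, the standard errors are too small. With means of same-number arrays in place of single arrays, 4 genes passed (Pdk4, Vnn1, Cpt1b and Crat). With both number 1 arrays left out, 5 genes passed (these 4 and Fgf21), and with both number 2 arrays left out 3 passed (Pdk4, Vnn1 and Cpt1b). Each control label then has a single array, which is assumed to vary like the IL1-beta groups, so these counts do not show that a gene repeats. Fgf21 had opposite signs in the 2 numbers.

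**Figure D3:**
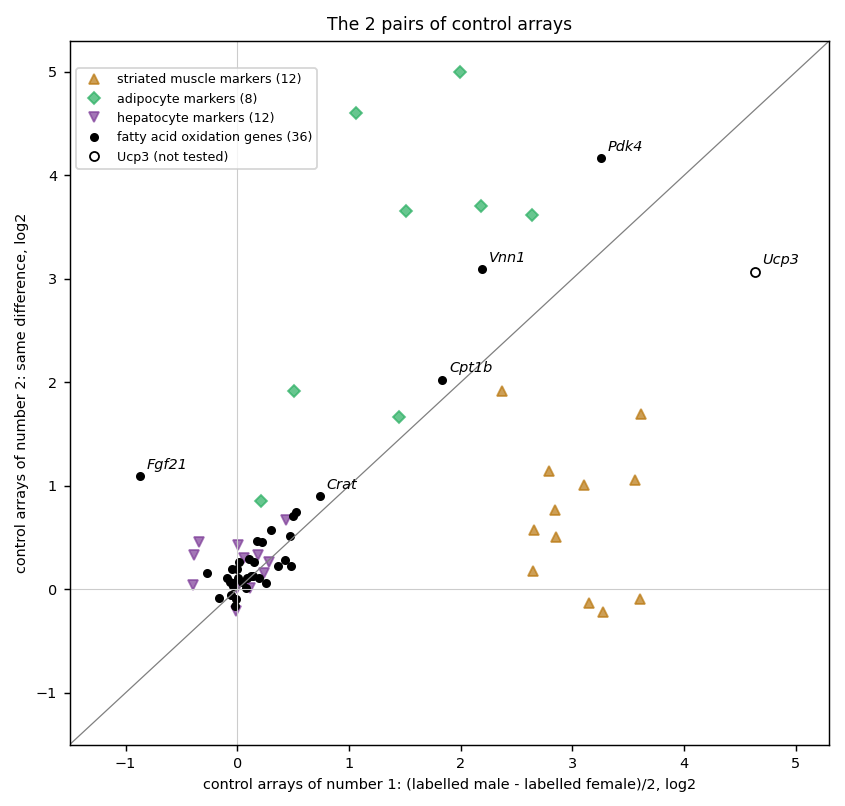
Turned and halved difference of the control arrays of number 1 (x axis) and number 2 (y axis), log2, for the 36 tested genes, Ucp3 and 3 marker lists, with the line of equal values in grey. Pdk4 (3.25, 4.17) and Vnn1 (2.19, 3.09) lie above the line, as do the adipocyte markers. Ucp3 lies below it, as do the striated muscle markers, and the hepatocyte markers surround 0. Genes of oxidative heart and brown fat mitochondria, not plotted, had medians of 3.66 and 2.85. The part of these tissues in the values was not tested.

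Markers of other tissues moved on the same arrays. All 8 tested adipocyte markers passed on the Xist side, with array medians of -2.49 and -3.15 (labelled female) and 0.47 and 4.09 (labelled male). Plin1, the coat protein of fat droplets, read -4.09, -4.65, -0.10 and 5.35 in that order. All 8 were higher in number 2, with medians of 1.48 and 3.63 for the numbers.

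Striated muscle markers gave the reverse order of numbers. Of 12 tested, 12 were positive and 8 passed, with array medians of -2.66, -0.52, 3.37 and 0.52 and medians of 2.98 and 0.67 for the numbers. All 12 were higher in number 1. Genes of oxidative heart and brown fat mitochondria passed in 4 of 4 cases, at -3.26, -2.47, 4.05 and 3.23, with 3.66 and 2.85 for the numbers. Ucp1, the uncoupling protein of brown fat, read -4.52 and -4.35 on the arrays labelled female and 5.45 on male 2 and had no value on male 1. Hepatocyte markers passed in 1 of 12 cases (Ahsg), with a median of 0.12. Stellate cell markers passed in 6 of 8 cases (median 0.89) and Kupffer cell markers in 4 of 7 (median 0.87). Sinusoidal endothelial and neutrophil markers passed in 3 of 7 cases each (medians 0.39 and 0.56), bile duct in 2 of 4 and pancreas in 1 of 3. T and B cell markers passed in 3 of 7 cases on the Xist side and in 2 opposite. Cell cycle markers passed in 0 of 9 cases, and the 1 kidney marker tested (-0.74) did not pass. Of all tested genes, 12.1% passed on the Xist side and 9.3% opposite. Pdk4, Cpt1b, Slc27a1 and Ucp3 are known from muscle and fat, and the part of these tissues in the values was not tested.

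Other genes of the pathway came from a further list of 46, of which 41 were tested. On the control arrays 13 passed on the Xist side, where 12.1% of all tested genes did, and 4 opposite, where 9.3% did. The count on the opposite side is close to its background. The median of the 41 genes was 0.21. The smallest p-values belonged to Cyp4a14 (5.03 ± 0.17), Acss1 (3.26 ± 0.18), Cyp4a31 (2.56 ± 0.14) and Cyp4a10 (1.52 ± 0.13). The Cyp4a genes encode microsomal fatty acid omega-hydroxylases and Acss1 a mitochondrial acetyl-CoA synthetase. The 4 opposite genes were Phyh, Scp2, Bdh2 and Acad8 (-0.68, -0.59, -1.02 and -0.39), the first 2 of which serve the peroxisomal oxidation of branched chains. Of 29 listed regulators 27 were tested and 3 passed on the Xist side, a share close to the 12.1% of all tested genes. They were Cux2 (2.99 ± 0.11), Pparg (1.21 ± 0.31) and Rxrb (0.37 ± 0.10). Cux2 also passed between the sexes under IL1-beta (female minus male 5.59 ± 0.22, limma, adjusted p = 0.000626). Pparg is itself among the adipocyte markers. Ppara, the gene of the receptor named above, stood at 0.22 ± 0.14 (adjusted p = 0.292), and its mean on the IL1-beta arrays was 5.06.

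Whether the sex difference differed between the settings was put to the interaction, female minus male under IL1-beta minus the turned and halved control difference. In this form none of the 36 genes passed (0 genes, limma, where 0.209% of all tested genes did), and 8 had an unadjusted p under 0.05. How many of all tested genes had such a p was not counted. The values were negative for 31 genes, with a median of -0.40 against 0.01 over all tested genes. Of the 15346 genes tested, 7831 had a positive value. Cpt1b stood at -1.53 ± 0.31 (adjusted p = 0.171), Pdk4 at -2.56 ± 0.55 (adjusted p = 0.192) and Vnn1 at -2.67 ± 0.58 (adjusted p = 0.198). After quantile normalization these 3 genes passed. With the control difference as labelled, neither turned nor halved, the signs of these genes reversed: Pdk4 stood at 8.57 ± 0.70 (adjusted p = 0.000977), Vnn1 at 5.25 ± 0.74 and Cpt1b at 4.26 ± 0.39. In that form 6 of the 36 genes passed with a positive value (these 3, Crat, Slc27a1 and Ehhadh), where 8.61% of all tested genes did, and 0 with a negative value, where 5.65% did. The median was then 0.23 against -0.05 over all tested genes, with 23 genes positive, as were 7297 of the 15346 genes tested. The result of this comparison therefore depends on a direction that is not settled. The plot of both sex differences sets them side by side.

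**Figure D4:**
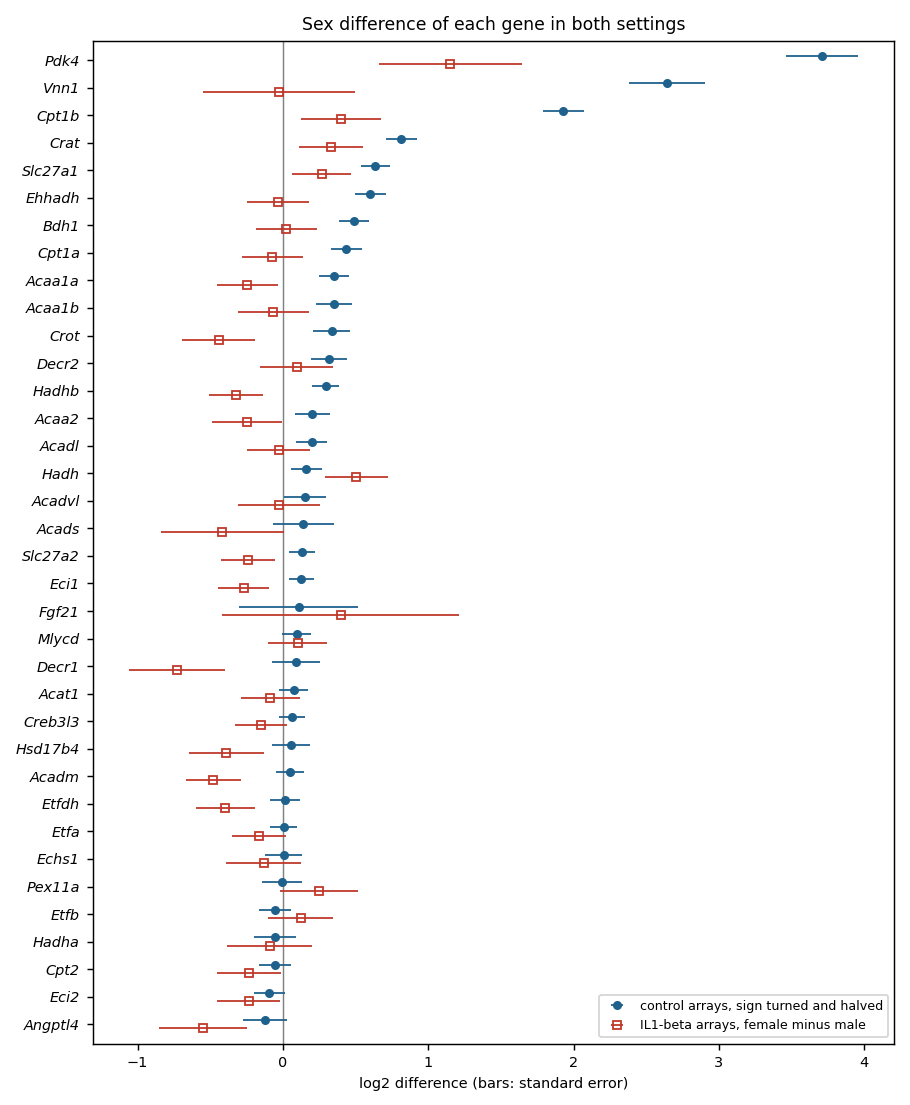
Log2 sex difference (x axis, bars are standard errors, 2 arrays per sex) of the 36 tested genes on the control arrays, sign turned and halved (filled circles), and under IL1-beta, female minus male (open squares). Genes are ordered by the control value, from Angptl4 at -0.13 to Pdk4 at 3.71, and the IL1-beta values lie between -0.73 (Decr1) and 1.15 (Pdk4).

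The effect of IL1-beta as labelled, averaged over the sexes, sets liver-over-pool arrays against arrays without that profile. By this comparison 29 of the 36 genes were higher and 2 lower (Slc27a1 and Vnn1), where 31.6% of all tested genes were higher and 37.6% lower. Their values followed the level against the pool, from 6.61 ± 0.13 for Slc27a2 to -1.45 ± 0.14 for Slc27a1, with a median of 2.18 against 2.11 for the level itself. Pdk4 (-0.18 ± 0.35, adjusted p = 0.659) and Cpt1b (-0.29 ± 0.20, adjusted p = 0.230), whose control arrays cancel in the mean, did not pass. An effect of the cytokine and the unlike content of the arrays cannot be told apart here.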

How the data were processed

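The authors deposited 1 table with a log10 ratio per feature and array. Per the labels, Cy5 carried liver and Cy3 the reference. The submitters' processing notes name Agilent Feature Extraction and no version. How background and dyes were corrected is not given in the sources used here, nor is the log base, and log10 was taken from the values. Signal over background is unknown, as intensities were not used here, and 2 arrays per group limit the precision.

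Ratios were multiplied by 3.32193 to give log2. Of 45018 features 33653 carried 1 gene symbol in the platform annotation, 56 several and 11309 none. An exact 0 was read as no measurement. Features with a value on all 8 arrays numbered 32366, of which 26218 had 1 symbol and were averaged to 15346 genes. A model of 4 group means was fitted with limma 3.58.1 (R 4.3.3, lmFit and eBayes, 4 residual and 2.88 prior degrees of freedom). Two-sided p-values were adjusted by Benjamini-Hochberg over the genes tested, and 0.05 was the threshold. The method was tested on simulated data. Figures and sequence searches used Python 3.11.15.

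The genes, the lists and the turned control difference were chosen with earlier results of these data known. Values on all arrays are given for genes passing in a sex comparison and, in roles with fewer than 2 such genes, for up to 2 with the smallest p. Arrays of Acads, Acadm, Decr1, Hadha, Ucp3 and Fgf21 are given besides, chosen after their values were seen. Median centring, quantile normalization, zeros kept, other probe summaries, filters, weights, a replicate block and arrays left out were tried.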

Additional observations from a re-analysis of the deposited data

How the results depend on the processing

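Of 190 values of the 8 genes passing on the control arrays, recomputed under alternatives, 161 stayed on their side of the threshold, 29 kept their direction without passing and 0 reversed. The count of 8 genes became 14 after quantile normalization, 4 with means of same-number control arrays, 5 without both arrays of number 1 and 3 without both of number 2. Pdk4, Vnn1 and Cpt1b passed in each of these 4 settings, but with a number left out each control label has 1 array, assumed to vary like the IL1-beta groups. Leaving out single arrays gave 5 to 8 genes, 5 without female control 2 (Cpt1a, Ehhadh and Bdh1 lost) and 5 without male control 1 (the same 3 lost). The interaction rose from 0 to 3 genes after quantile normalization (Cpt1b -2.95, Pdk4 -3.98, Vnn1 -3.86), and the cause was not tested. With the control difference as labelled, added after seeing the data, it gave 6 genes, all positive (Pdk4 8.57), and 2189 of all genes, 1322 positive and 867 negative. It stayed at 0 in the other settings, and the sex difference under IL1-beta stayed at 0 in every setting run for it. Genes apart from the pool numbered 30 to 35 and those of the effect as labelled 29 to 32. Over all genes, calls on the control arrays went from 3284 to 6765 (quantile), 1087 (pair means), 2058 (control groups fitted alone), 1208 and 1577 (number 1 or 2 left out) and 1516 to 3130 (single arrays left out). Calls of the effect as labelled went from 10620 to 6614 (quantile) and 6867 (genes of low ratio left out). Sex calls under IL1-beta went from 25 to 5 (quantile, 4 higher and 1 lower in females against 16 and 9), 10 (IL1-beta groups alone) and 7 to 23 (single arrays left out), interaction calls from 32 to 628 (quantile, 285 higher and 343 lower against 4 and 28), 11 (zeros kept), 19 (genes of low ratio left out), 9 (pair means), 12 and 159 (number 1 or 2 left out) and 0 to 27 (single arrays left out). The labels give same-numbered arrays only a number in common, and whether they share RNA was not tested. Their deviations correlated at -0.43 between the control groups and -0.41 between the IL1-beta groups. A replicate block left 7 genes (Cpt1a lost, adjusted p = 0.0582), 33 against the pool, 31 for the effect as labelled and 0 in the other contrasts, with 2433 of all genes on the control arrays and 0 in the interaction. With the numbers of the male arrays crossed, chosen after seeing the data, it left 8, with 3433 calls of all genes there and 15 in the interaction. The RefSeq probe setting (9 genes) and the number left out were also chosen after seeing the data. Values near the limit, such as Cpt1a and Bdh1, rest on few arrays.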
